A study of Mus musculus with 98 samples.

Results

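The cells described here are the mature medullary thymic epithelial cells (MmTEC) of the newborn mouse thymus. They were chosen by the cell type label that the authors deposited for each cell and not by any value computed here. The authors' labels rest on the expression of the same cells, so levels in MmTEC against other labels are given as a description, with no test. Of 21451 labelled cells, 518 were MmTEC, and they made up part of 9083 cells that carried 1 of 9 labels of thymic epithelial cells (TEC). Live Ter119-CD45- cells had been sorted at P0, stored in RNAprotect and captured with the 10x Genomics 3' chemistry. One group was 3 libraries of mice heterozygous for both *Tbx1* and *Crkl* (Tbx1+/-Crkl+/-, here HET, with Tbx1 disrupted by a LacZ allele and Crkl carrying a germline null allele), and the other was 3 libraries of their WT littermates. Both alleles were germline, so the heterozygosity was not limited to the epithelium. RNA of sorted WT mTEC and cTEC at P0, and of WT mTEChi and mTEClo at 4 weeks, had been sequenced in bulk (6 libraries each), and served as a readout that the labels had not used.

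The medulla of the thymus is where developing T cells are tested for reactivity to the tissues of the body. Its mature epithelial cells are known for *Aire*, a nuclear regulator that allows a great many genes of other organs to be transcribed at a low rate, each in a small share of the cells. The products are loaded on MHC molecules, and co-stimulatory ligands such as CD80 help to delete reactive thymocytes or to turn them into regulatory T cells. The lineage depends on RANK, CD40 and lymphotoxin receptor signals to NF-kB, and ageing MmTEC lose *Aire* and take on cornified, tuft-like or other fates.

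Library depth set how well these cells were measured. The 6 libraries held 4978011 to 31418527 UMIs in all, of which 134361 to 736009 lay in MmTEC. HET libraries 1, 2 and 3 had 39, 123 and 93 MmTEC, and WT libraries 1, 2 and 3 had 46, 91 and 126. Of the MmTEC, 45 had fewer than 1000 genes, the minimum given in the methods of the study, and the shallowest had 876. No cell barcode occurred in more than 1 library among the MmTEC, against 44 among all cells, and 1 of the MmTEC barcodes was also that of a cell with another label in another library. A count of 3 UMIs corresponded to 4.08 to 22.3 CPM by library (counts per 1000000 UMIs), so genes under that level were not measurable in the shallowest. *Tbx1* and *Crkl* together reached only 10.5 to 21.7 CPM in MmTEC, which was too few UMIs to check the genotype labels there. In the other TEC, 1 of the 2 genes had enough UMIs to be tested, and it was not lower in HET. Its log2 fold change, HET over WT, was 0.16 (edgeR). *Crkl* had a UMI in 440 of 4826 perinatal cTEC, and *Tbx1* in 1.

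The markers of the label were high in its cells, which is no independent check, since the labels rest on the same expression. *Aire* was at 1734, 1617 and 2226 CPM in HET libraries 1, 2 and 3 and at 2596, 1568 and 1338 CPM in WT libraries 1, 2 and 3, with a mean of 1846 ± 470 (SD, n = 6 libraries). All 6 values lay above those of every other TEC label, of which proliferating TEC (PrTEC) came next with a mean of 316 CPM, post-Aire mTEC (PAmTEC) had 135.5 CPM and perinatal cTEC (PcTEC) had 6.27 CPM. The PAmTEC mean rested on WT library 1 at 632 CPM (19 UMIs in 11 cells), and the other 5 libraries were between 0 and 144.2 CPM. At least 1 *Aire* UMI was found in 83.2% of MmTEC, at a median of 3170 UMIs per cell. The share was 22.2% in PrTEC (median 3410 UMIs), 7.58% in PAmTEC, 2.18% in PcTEC and 1.86% in CapFb1b fibroblasts (median 3163 UMIs), which should lack the transcript. After each cell was thinned to 2000 UMIs, which kept 426 of the MmTEC, the share was 79.3% in MmTEC and 0.995% in the fibroblasts. *Fezf2*, a zinc finger factor that drives tissue genes beside *Aire*, had a UMI in 55.2% of MmTEC (49.1% at 2000 UMIs), against 17.0% of PrTEC.

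*Cd80*, the co-stimulatory ligand, was found in 27.0% of MmTEC (19.95% at 2000 UMIs), against 4.93% of PrTEC and 0.248% of CapFb1b fibroblasts. Its level was 119.1, 110.7 and 126.0 CPM in the HET libraries and 104.2, 107.4 and 85.6 CPM in the WT libraries. *Cd74*, the invariant chain that guides MHC class II to endosomes, was detected in 100% of MmTEC, but also in 83.8% of the fibroblasts, so its share of positive cells does not mark the type in these libraries. Its mean level was higher, at 16544 ± 6363 CPM (SD, n = 6 libraries) in MmTEC, against 7220 CPM in PrTEC and 6629 CPM in PcTEC. Within each library MmTEC had the highest level of the TEC labels with at least 5 cells. Between libraries the levels overlapped. MmTEC of HET library 3 were at 9329 CPM, PcTEC of WT library 3 at 9353.5 CPM and structural TEC (sTEC) of HET library 2 at 12262 CPM (6 cells).

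**Figure D1:**
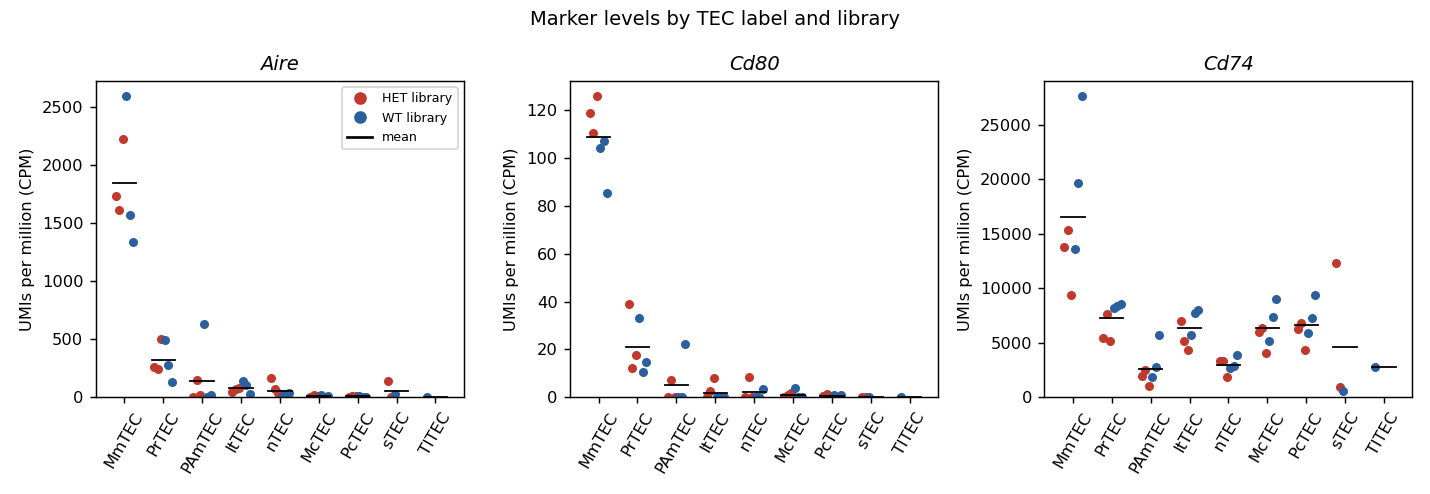
Level of *Aire*, *Cd80* and *Cd74* in CPM by TEC label, where each point is 1 library (HET red, WT blue) with at least 5 such cells and the line is the mean. MmTEC hold the highest mean for all 3 genes, and the points of HET and WT libraries overlap for *Aire* and *Cd74*.

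At 2000 UMIs, 338 of 426 MmTEC had an *Aire* UMI, and the rest differed from them in some respects and not in others. *Cd80* had a UMI in 23.1% of the MmTEC with *Aire* and in 7.95% of those without. *Cd40*, the receptor through which T cells signal to mTEC, had one in 42.3% and 19.3%, and *Fezf2* in 51.2% and 40.9%. The shares of *Cd80* and *Cd40* were higher in the cells with *Aire* in all 6 libraries, though those of *Cd80* were 19.4% and 19.0% in WT library 2. *Fezf2* differed in WT library 1, where it was found in 32.4% of the cells with *Aire* and 100% of the few without. *Ccl21a*, a ligand of CCR7, was in 25.7% and 31.8%, and the mean number of tissue antigen genes per cell was 2.19 with *Aire* and 2.56 without, over the cells of all libraries. Within libraries these had no common direction: *Ccl21a* was in 30.8% and 16.7% in HET library 1, and the mean number of genes was 1.97 and 0.33 in WT library 1. A cell without an *Aire* UMI need not lack the transcript, and the cells of a library are not replicates, so these shares are descriptions.

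The genes that were highest in MmTEC relative to the other TEC were ranked by the mean over libraries of the log2 ratio of CPM + 10, among genes at 20 CPM or more. Since the label itself was built from expression, the ranking is a description with no test. The 30 leading genes were higher in MmTEC in 6 of 6 libraries each, with mean ratios of 3.14 to 4.28 on the log2 scale. At their head stood *Csn2*, which encodes the milk protein beta-casein, with a log2 ratio of 4.28 ± 0.83 (SD, n = 6 libraries). *Aire* itself followed at 4.28 ± 0.49.

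The leading genes are described here by what they encode, and no theme among them was tested. Some are known as products of other organs, such as *Calca* and *Calcb*, which encode calcitonin gene-related peptides, *Reg3g*, an antimicrobial lectin of the gut, *S100a8*, a calcium-binding protein of neutrophils, *Crhbp*, which binds corticotropin-releasing hormone, *Hal*, the histidase of skin and liver, and *Sspo*, which encodes SCO-spondin. *Calcb* was at 662, 618 and 791 CPM in the HET libraries and 923, 975 and 1010 CPM in the WT libraries, which did not overlap (log2 fold change, HET over WT, -0.55 ± 0.29 SE, adjusted p = 0.532, edgeR), while *Calca* ranged from 81.9 CPM in HET library 1 to 966 CPM in WT library 3. *Hdc*, the enzyme that makes histamine, was at 536, 522 and 438 CPM in the HET libraries and 485, 608 and 515 CPM in the WT libraries. Others were *Il12a*, a subunit of IL-12 and IL-35, *Icosl*, a ligand of the T cell receptor ICOS, *Il4i1*, an L-amino acid oxidase, *Ubd*, a ubiquitin-like modifier, *Ncf1*, a subunit of the NADPH oxidase, and *Srgn*, the granule proteoglycan serglycin. *Tnfrsf11b*, the decoy receptor of RANK ligand, was at 302.6 ± 124.8 CPM against 89.8 CPM in PrTEC and 2.53 CPM in PcTEC. The protease *Ctsh*, the synaptic vesicle protein *Syt1* and the GTPase-activating protein *Tbc1d4* were also among them.

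PrTEC was the label with the next highest level for 19 of the 30 leading genes, and the small structural TEC label (sTEC, 32 cells in all) for 7. The choice of reference label and pseudocount moved the ranking. When the highest of the other labels replaced their mean, 21 of the 30 genes were shared, and with a pseudocount of 1 in place of 10, 16 were shared. The 10 genes lowest in MmTEC relative to the other TEC were mostly genes of muscle that were highest in PAmTEC, such as *Acta1*, skeletal muscle actin, at 4.30 CPM in MmTEC and 1630 CPM in PAmTEC. *Meg3*, a maternally expressed non-coding RNA, was at 239 CPM in MmTEC and 12196 CPM in PAmTEC.

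**Figure D2:**
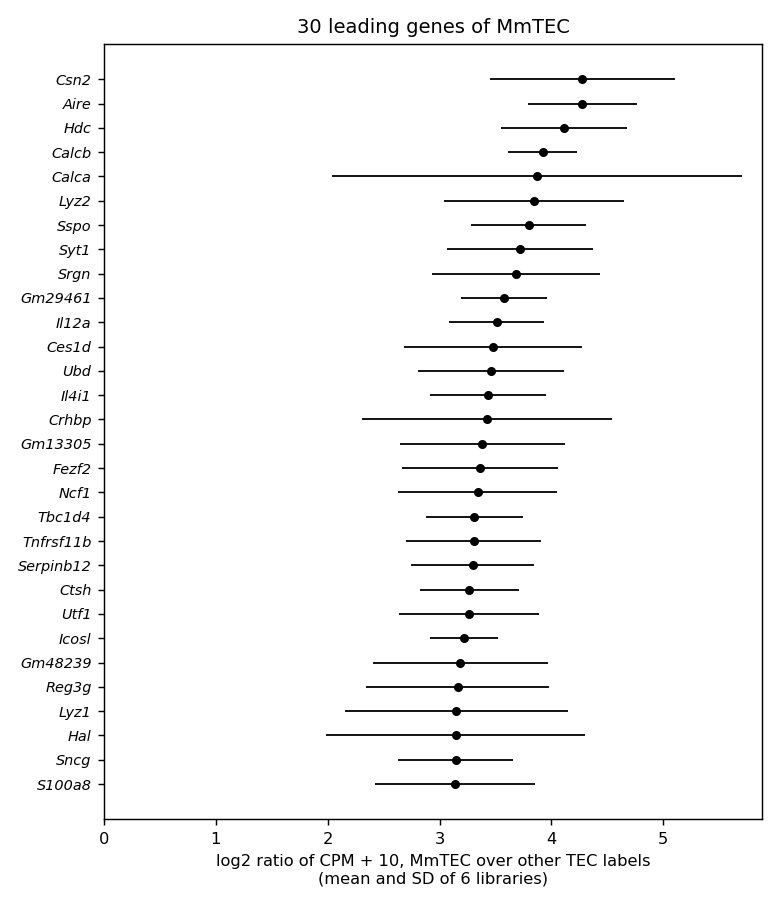
Log2 ratio of CPM + 10 in MmTEC over the mean of the other TEC labels for the 30 leading genes (point, mean; bar, SD of 6 libraries). The ratios run from 3.14 to 4.28, and *Calca* has the widest spread.

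Class II presentation genes were higher in MmTEC than in the other TEC, while the class I genes were split. Of 12 MHC class II presentation genes, all were higher in MmTEC than in the other TEC by the mean log2 ratio and 8 by over 1, against 924 of 18793 genes with a UMI in MmTEC that passed that size. *Ctss*, the endosomal protease that trims the invariant chain, was at 269 ± 93.5 CPM (log2 ratio 2.72 ± 0.49). *H2-Aa*, a class II alpha chain, was at 6577 CPM, *H2-Eb1*, a beta chain, at 3726 CPM and *H2-Ab1* at 5199 CPM. *H2-DMb2*, a chain of the peptide exchange factor DM, had a log2 ratio of 1.92, and *H2-Oa* and *H2-Ob*, the chains of DO that restrain DM, had 1.64 and 1.68. Of 11 class I presentation genes, 8 were higher (median log2 ratio 0.19), and 3 were higher by over 1. These were the immunoproteasome subunit *Psmb8*, *B2m* and *H2-D1* at 186.7, 2088 and 2427 CPM.

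Class II genes are known to share promoter elements, among them the Y box that NF-Y binds. The promoters of 2 class II genes at high level in MmTEC are shown for that reason, from RefSeq on GRCm38.p6, 250 bases before to 50 after the start of the gene, 5′ to 3′ on the strand of the gene. Capitals mark the letters TGATTGG or their complement, which hold the CCAAT core of the Y box. *H2-Aa* lies on the minus strand at chr17:34287774-34288073 and *H2-Eb1* on the plus strand at chr17:34305617-34305916.
H2-Aa: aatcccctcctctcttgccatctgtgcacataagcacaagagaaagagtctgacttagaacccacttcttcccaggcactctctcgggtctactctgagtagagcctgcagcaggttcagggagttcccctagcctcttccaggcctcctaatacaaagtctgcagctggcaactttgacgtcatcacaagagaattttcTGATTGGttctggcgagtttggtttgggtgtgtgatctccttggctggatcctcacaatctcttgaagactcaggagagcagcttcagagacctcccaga
H2-Eb1: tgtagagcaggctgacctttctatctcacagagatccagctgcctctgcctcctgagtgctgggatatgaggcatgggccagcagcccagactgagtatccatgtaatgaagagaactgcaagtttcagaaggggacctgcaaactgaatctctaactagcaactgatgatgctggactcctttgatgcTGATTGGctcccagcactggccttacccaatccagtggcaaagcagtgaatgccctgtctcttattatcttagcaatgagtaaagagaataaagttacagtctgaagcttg

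The match began 50 bases before the start in *H2-Aa* and 61 in *H2-Eb1*. Of 8 H2 class II genes on the list, 7 had a promoter in the table and 6 of these held the letters on either strand. *H2-DMa* held none in either of its promoters. Of all 32851 promoters of the same length, 7.82% held them. The letters were chosen after 7 forms had been searched. Of the others, CTGATTGG was in 3 of the genes and 4.10% of all promoters, CCAAT in 7 and 37.4%, AGCAAC in 3 and 14.8%, CTAGCAAC in 2 and 1.32%, and 2 forms of the NF-kB site in none. *H2-Ab1* was the gene without an entry. A match is a description of the letters and not of a bound site.

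Genes for co-stimulation and for the receptors that drive the lineage were also mostly higher. Of all 18793 genes with a UMI in MmTEC, 9271 were higher than in the other TEC and 924 were higher by over 1 on the log2 scale. Of 12 co-stimulation and tolerance genes, 10 were higher in MmTEC and 7 by over 1 on the log2 scale, while *Lgals9*, which encodes galectin-9, and *Cd274*, the ligand PD-L1, were lower by over 1 (-1.81 and -1.41). Besides *Cd80* and *Icosl* the 7 were the death receptor *Fas* (2.05), the ligand of CD27 *Cd70* (1.96), *Cd40* (1.96), *Tnfrsf9* (1.78) and *Tnfsf9* (1.23). Of 15 genes of RANK, lymphotoxin and NF-kB, 9 were higher and 6 by over 1, and the lymphotoxin receptor *Ltbr* was lower by over 1 (-1.17). The receptor RANK itself, *Tnfrsf11a*, was at 138.7 ± 34.6 CPM, against 63.9 CPM in PrTEC and 5.01 CPM in PcTEC. The non-canonical NF-kB subunits *Relb* and *Nfkb2* had log2 ratios of 1.24 and 1.27. Of 20 transcription factors of mTEC, 15 were higher and 6 by over 1 (median 0.23), among them *Aire*, *Fezf2*, *Spib*, *Insm1* and *Ehf*. *Spib*, which limits mTEC maturation, was at 141 ± 48.7 CPM. It had a UMI in 20.7% of MmTEC and in 5 of 19 TlTEC (26.3%) at 2000 UMIs. The 3 lower by over 1 were *Pax1* (-1.65), *Hes1* (-1.14) and *Tox* (-1.07). Of 20 partners of *Aire*, 5 were higher, and *Sirt1*, a deacetylase of Aire, was the one by over 1 (1.995 ± 0.641).

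Of 13 chemokines, 9 were higher in MmTEC, 5 of them by over 1, and 2 were lower by over 1. They were led by *Ccl19*, a ligand of CCR7, at 172.4 ± 118.2 CPM (log2 ratio 2.76), and by *Cxcl9*, a ligand of CXCR3, at 652 ± 592 CPM (1.93). *Ccl20*, a ligand of CCR6, had a ratio of 1.90 with a spread of 1.58 between libraries. The 2 lower ones were *Cxcl12* (-1.83) and *Ccl21a* (-1.12), whose reads may be shared with near-identical copies. *Ccl21a* had a UMI in 27.0% of MmTEC and 59.5% of intertypical TEC (ItTEC) at 2000 UMIs (35.1% and 54.4% before thinning). In the remaining TEC labels the share at 2000 UMIs was lower than in MmTEC, from 0% in TlTEC to 23.6% in nTEC. Cell cycle genes were higher in MmTEC for 1 of 16 and interferon-stimulated genes for 1 of 15, with median log2 ratios of -0.80 and -1.09, against -0.01 over all genes of the file. The mean of the other TEC labels includes PrTEC, in which *Top2a* and *Mki67* had a UMI in 45.4% and 38.5% of cells at 2000 UMIs. These shares were 10.8% and 3.29% in MmTEC, against 7.33% and 5.16% in PcTEC, so the 2 genes split there. The part of PrTEC in the cell cycle ratios was not tested. Of 12 cTEC markers, *Foxn1* was higher (0.23) and 6 were lower by over 1, among them *Psmb11*, the thymoproteasome subunit, at 15.8 CPM.

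Genes of other tissues were found in most MmTEC. Of the 40 genes on the peripheral tissue antigen list 35 were in the file and 34 had a UMI in MmTEC. At 2000 UMIs per cell, 79.8% of MmTEC had at least 1 of them, with a mean of 2.27 genes per cell. The share was 51.9% in sTEC and 47.4% in the label TlTEC, which had 27 and 19 such cells, 35.7% in PAmTEC, 21.4% in PrTEC and 10.7% in PcTEC. *Csn2* was the most frequent, with 3625 UMIs in 345 cells and 220 UMIs in the cell with the most. *Reg3g* was in 209 cells, *S100a8* in 152 and *S100a9*, its partner, in 78, and *Calca* had 1245 UMIs. Most were sparse: *Ttr*, a carrier of thyroid hormone made by liver and choroid plexus, had 78 UMIs in 7 cells, of which 1 cell held 67. *Cyp1a2*, a liver cytochrome, had 92 UMIs in 8 cells, and *Alb*, serum albumin, 4 UMIs in 1 cell.

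The number of genes per cell at a fixed depth lay within the range of the other TEC. At 2000 UMIs, the median MmTEC had 1176 ± 47.8 genes (SD of 6 library medians). PrTEC had 1244 ± 32.8 and PcTEC 1213 ± 13.4, and the MmTEC value was above that of PrTEC in 0 of 6 libraries and above that of PcTEC in 1 of 6. It was above that of McTEC (1172) and of PAmTEC (1125) in 4 of 6 libraries each, of sTEC (1137) in 2 of 2 and of TlTEC (1103) in the 1 library that had enough cells. Markers of B cells and myeloid cells summed to 194 to 912 CPM. All 12 with a UMI were higher in MmTEC than in the other TEC, 5 of them by over 1 on the log2 scale (median 0.66). *Lyz2*, a lysozyme, made up most of the sum with a mean of 317 CPM (log2 ratio 3.85). *Cd79b*, a chain of the B cell receptor, was at 43.7 CPM (1.82) and the complement genes *C1qa* and *C1qb* were at 31.9 and 32.4 CPM, while *Ms4a1* and *Itgax* were at 1.98 and 0 CPM. The part of these markers in the ranking of genes was not tested. Thymocyte markers summed to 99.2 to 267 CPM over 18 genes.

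The leading genes were also read in the bulk libraries, whose cells were sorted by surface markers. Of the 30 leading genes, 28 had an identifier in the bulk table, and all 28 were tested. In mTEChi against mTEClo at 4 weeks, 23 of the 28 rose and none fell at an adjusted p under 0.05 (edgeR, quasi-likelihood), where 10.1% of the 15443 genes tested rose and 6.27% fell. Their median log2 fold change was 2.32, against 0.10 over all genes. *Aire* ranged from 193 to 284 CPM in mTEChi and from 16.0 to 96.1 CPM in mTEClo, so the groups did not overlap (log2 fold change 2.48 ± 0.42 SE). *Csn2* ranged from 1338 to 2105 CPM and from 59.4 to 333 CPM (3.22 ± 0.39), and *Hdc* from 2251 to 3001 CPM and from 75.1 to 885 CPM (2.71 ± 0.48). The 5 that missed the threshold were *Calca*, *Sspo*, *Gm13305*, *Icosl* and *Reg3g*, and all had log2 fold changes above 0. *Icosl*, for example, had an adjusted p of 0.072 by edgeR and overlapping groups. The gate that separated mTEChi from mTEClo is not given in the sources used here. Since MHC class II and CD80 are in common use for it, *Cd74* (a log2 fold change of 1.22), *Cd80* (2.56) and the class II genes (10 of 12 higher) are given as values.

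Other gene lists split in the same libraries. Of 34 peripheral tissue antigens tested, 17 rose and 1 fell in mTEChi. Of 12 co-stimulation genes, 9 rose. Of 13 tuft-like genes tested 7 fell, as did 10 of 15 interferon-stimulated genes and 8 of 9 intertypical TEC markers. Of 11 B cell and myeloid markers tested, 7 rose and 0 fell (median 4.18). For post-Aire cornified genes, 0 of 13 passed the test in either direction. In bulk mTEC against cTEC at P0, all 28 leading genes were higher in mTEC, where 27.1% of 14901 genes rose and 16.3% fell. Markers of other cell types rose in the same comparison, 10 of 10 for B cells and myeloid cells, 7 of 9 for endothelial and mural cells and 5 of 9 for fibroblasts. The part of such cells in either bulk result was not tested. *Aire* was at 194 to 310 CPM in mTEC, against 0 to 2.91 CPM in cTEC, and *Fezf2* was at 290 to 574 CPM against 0 to 0.0807 CPM.

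**Figure D3:**
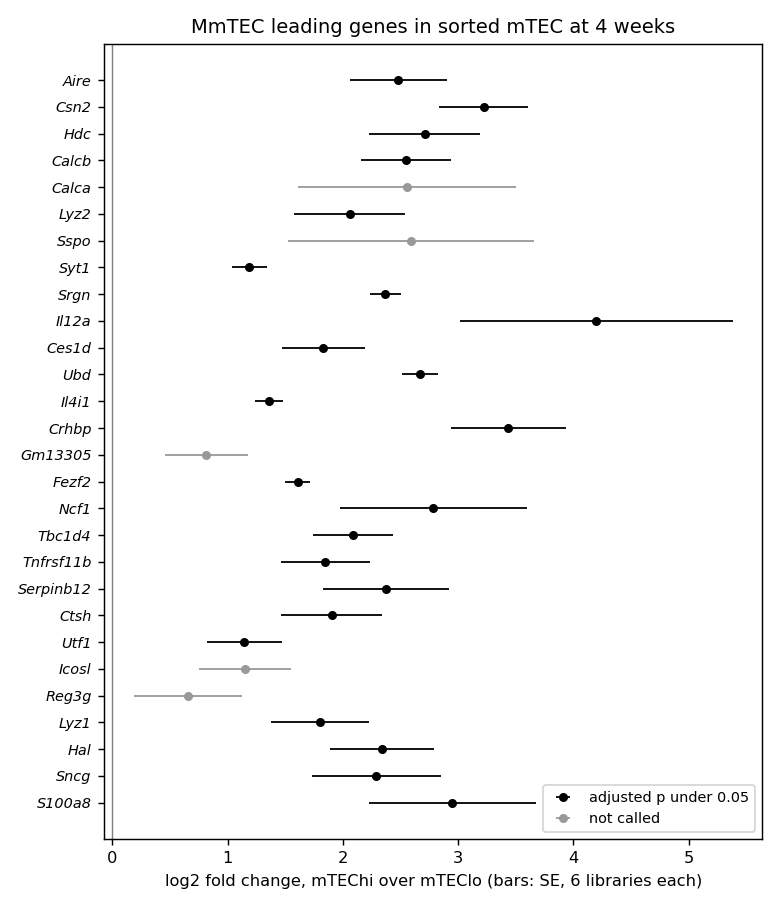
Log2 fold change between WT mTEChi and mTEClo at 4 weeks for *Aire* and the other leading genes of MmTEC with an identifier in the bulk table (point, edgeR estimate; bar, SE; 6 libraries each). All 28 values lie above 0, and the 5 grey points missed the threshold.

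The next comparison asked whether MmTEC differ between HET and WT newborns. No difference in their share of TEC was detected. MmTEC were 4.80% (exact 95% binomial interval 3.44 to 6.51%), 4.78% (3.99 to 5.68%) and 7.10% (5.77 to 8.63%) of TEC in HET libraries 1, 2 and 3. In WT libraries 1, 2 and 3 they were 6.91% (5.10 to 9.11%), 6.68% (5.41 to 8.14%) and 5.33% (4.46 to 6.32%). The intervals cover counting error only. HET library 3 was the highest of the 6, and the groups overlapped. An exact two-sided permutation test gave p = 0.4, where 0.1 is the smallest that 3 libraries against 3 allow. Against all non-thymocyte cells the difference had the other sign (2.55% in HET and 2.41% in WT).

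Depth per cell moved with genotype. The median MmTEC held 2844, 2612 and 2812 UMIs in HET and 3284, 3913 and 3653 UMIs in WT, and the groups did not overlap (exact permutation p = 0.1, the smallest possible). At 2000 UMIs, the genes per cell were 1207, 1224 and 1178 in HET and 1194, 1166 and 1088 in WT, which overlapped (exact permutation p = 0.2). The difference in depth was not limited to MmTEC. Before thinning, the median PcTEC had 1578, 1507 and 1539.5 genes in HET and 1584, 2172.5 and 2589 genes in WT. Whether less RNA per cell, its capture or the depth of sequencing set the difference cannot be told apart. The p-values below set the difference between genotypes against the spread between these libraries.

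*Aire* did not differ detectably by genotype. Its log2 fold change, HET over WT, was -0.01 ± 0.31 (SE; adjusted p = 0.993, edgeR), and the values listed above for the 2 groups overlapped. *Cd80* was higher in each HET library than in each WT library, but by little (0.21 ± 0.31, adjusted p = 0.847). *Cd74* was at 13791, 15340 and 9329 CPM in HET and 13561, 19601 and 27640 CPM in WT, with a log2 fold change of -0.75 ± 0.34 (adjusted p = 0.490, and -0.38 without WT library 3). WT library 3 was the highest and HET library 3 the lowest, and the groups overlapped.

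Across the 6092 genes tested, 1 rose and 7 fell in HET at an adjusted p under 0.05, which is 0.131% of them (0.115% for those that fell). At an unadjusted p under 0.05 there were 312 higher (5.12%) and 291 lower (4.78%). *Serpinb1a*, an inhibitor of neutrophil proteases, was at 59.54, 120.3 and 119.02 CPM in HET and 422, 427 and 458 CPM in WT (-2.12 ± 0.33, adjusted p = 0.00625). *Krt20*, a keratin of the gut lining, was at 0, 12.0 and 17.5 CPM in HET and 62.5, 150.3 and 112.8 CPM in WT (-3.27 ± 0.52). The groups of neither gene overlapped.

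*Mucl2*, a mucin-like gene, was at 14.9, 2.41 and 3.50 CPM in HET and 78.2, 241 and 78.8 CPM in WT. Its log2 fold change over libraries was -4.71 ± 0.67 (SE, edgeR). Its 4 UMIs over the HET libraries gave, against the WT libraries, a ratio per UMI of 0.0361 (95% counting interval 0.00972 to 0.0939). That interval takes the UMIs as independent and leaves out the spread between libraries and cells. *AA467197* was at 14.9, 28.9 and 10.5 CPM in HET and 109.5, 116.0 and 135.9 CPM in WT (-2.67 ± 0.43). *Pglyrp1*, a protein that binds bacterial peptidoglycan, was at 59.5, 38.5 and 66.5 CPM in HET and 193, 178 and 201 CPM in WT (-1.89 ± 0.34). In each of the 3 genes every HET library lay below every WT library. *Tmprss11d*, a serine protease of the airway, was at 44.7, 38.5 and 28.0 CPM in HET and 145.9, 109.5 and 179.3 CPM in WT (-2.07 ± 0.38). *Krt9*, a keratin of thick skin, had 2 UMIs over the HET libraries and 62 over the WT libraries, a ratio per UMI of 0.0538 (95% counting interval 0.00637 to 0.203). This interval too leaves out the spread between libraries and cells, and the log2 fold change over libraries was -4.23 ± 0.75 (SE, edgeR). *Olfr889*, an olfactory receptor gene, rose, from 26.1, 6.44 and 12.2 CPM in WT to 89.3, 98.6 and 59.5 CPM in HET (2.59 ± 0.47).

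The number of calls changed with 1 library left out, while all 8 genes kept their direction in each of these fits. Without HET library 3 no gene was called by edgeR, with 461 at an unadjusted p under 0.05, and without HET library 1 or HET library 2 there were 2. The value of *Serpinb1a* ranged from -2.28 to -1.95 over the 6 fits and that of *Krt20* from -3.73 to -3.02. Without WT library 1 there were 89, without WT library 2 there were 18 and without WT library 3 there were 16. DESeq2 called 28, of which 6 were among the 8. On cells thinned to 2000 UMIs, 6 of the 8 could be tested and 4 were still called by edgeR, namely *Serpinb1a*, *Mucl2*, *AA467197* and *Olfr889*. *Pglyrp1* (-1.40, adjusted p = 0.222) and *Tmprss11d* (-1.93, adjusted p = 0.107) were not. In the other TEC, where 13190 genes were tested, 0 were called by edgeR and 801 had an unadjusted p under 0.05. Of the 8 genes, 5 were tested there. *Serpinb1a* was at -1.17 ± 0.23 on the log2 scale (unadjusted p = 0.000514, adjusted p = 0.709, edgeR), and the others were at -0.38 (*AA467197*), -0.50 (*Olfr889*), 0.40 (*Pglyrp1*) and 0.47 (*Tmprss11d*).

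**Figure D4:**
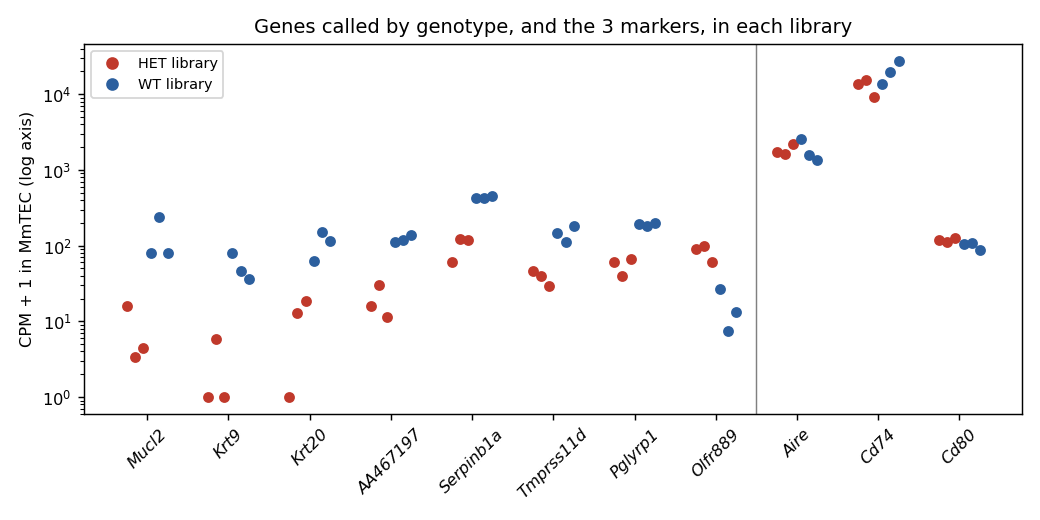
CPM + 1 in MmTEC, on a log axis, of the 8 genes called by genotype and of the 3 markers, where each point is 1 library (HET red, WT blue). The HET and WT points of the 8 genes do not overlap, while those of *Aire* and *Cd74* do.

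The genes by which MmTEC stood out were lower in HET for the most part, though edgeR called none of the 30 leading genes (11 had an unadjusted p under 0.05). DESeq2 called 3 of them lower, *Ubd*, *Srgn* and *Gm13305*. Of the 30, 27 had a lower mean CPM in HET, with a median log2 fold change of -0.56. Over all 18793 genes with a UMI in MmTEC, 47.3% were lower in HET. The 30 genes together made up 12816, 13949 and 14947 CPM in HET and 18711, 20342 and 26622 CPM in WT, and the groups did not overlap. For the 100 leading genes, the counts were 83 lower and 31 with every HET library below every WT library, where 4.15% of all genes did so. Their median was -0.58 over the 100 tested in MmTEC and 0.01 over the 90 tested in the other TEC. The genes were picked for a low level in the other TEC relative to MmTEC, and the difference between these medians was not tested. These lists were ranked in the same libraries, though without regard to genotype.

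Peripheral tissue antigens were among the lists that leaned lower in HET. Of the 34 with a UMI, 28 had a lower mean in HET and 7 did not overlap, all of them lower. Among all 18793 genes with a UMI, 47.3% had a lower mean in HET and 4.15% had every HET library below every WT library. The list summed to 1496, 2841 and 2531 CPM in HET and 2971, 3947 and 8882 CPM in WT, where *Csn2* and *S100a8* in WT library 3 stood at 2644 and 1793 CPM. None of the 16 tested was called by edgeR, and DESeq2 called 2, *Pcp4* and *S100a9*. At an unadjusted p under 0.05 in edgeR 8 were lower, as were 4.78% of the 6092 genes tested. The median log2 fold change of all 34 without the filter was -1.76, against -0.08 over all genes, and rare transcripts of few cells enter it. *Pcp4*, a calmodulin regulator of Purkinje cells, was at 0, 19.2 and 10.5 CPM in HET and 291.9, 73.01 and 103.3 CPM in WT (-3.53 ± 0.65, adjusted p = 0.0579 by edgeR and 0.000795 by DESeq2, and 0.00153 to 0.570 without 1 library). *Tff3*, a trefoil peptide of mucous epithelia, was at 0, 19.2 and 3.50 CPM in HET and 52.1, 79.5 and 48.9 CPM in WT (-2.57 ± 0.57, and -4.53 without HET library 2). *Apoa1*, the apolipoprotein of HDL, was at 52.1, 74.6 and 24.5 CPM in HET and 192.8, 111.7 and 178.0 CPM in WT (-1.68 ± 0.40).

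The presentation lists and the chemokines leaned the same way. Of 12 class II genes, 10 were lower in HET and 0 were called by edgeR or DESeq2 (2 at an unadjusted p under 0.05), with a summed level of 28877, 30992 and 20372 CPM in HET and 27920, 39748 and 53067 CPM in WT, which overlapped. *Ctss* was at 238, 217 and 123 CPM in HET and 323, 339 and 372 CPM in WT (-0.94 ± 0.31, adjusted p = 0.292). Of 11 class I genes, 9 were lower and 0 called by either tool (3 at an unadjusted p under 0.05). *Psmb8* was at 104, 128 and 116 CPM in HET and 203, 279 and 291 CPM in WT (-1.21 ± 0.31, adjusted p = 0.169), and *B2m* was at 1451, 1739 and 1435 CPM in HET and 2022, 2710 and 3170 CPM in WT (-0.85 ± 0.30). Neither gene overlapped between the groups. The other TEC leaned the same way by less, with median log2 fold changes of -0.35 for class II and -0.21 for class I, against -0.63 and -0.51 over the tested genes in MmTEC, and the difference between these medians was not tested. For class I, 9 genes were tested in MmTEC and 11 in the other TEC.

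Of 13 chemokines, 11 were lower in HET (median -0.70 over the 10 tested in MmTEC and -0.12 over the 9 tested in the other TEC). None was called by edgeR, with 4 lower and 1 higher at an unadjusted p under 0.05, and DESeq2 called *Cxcl9*. *Cxcl9* was at 156.3, 397.0 and 259.0 CPM in HET and 803, 526 and 1769 CPM in WT (-1.99 ± 0.51, adjusted p = 0.230 by edgeR and 0.00343 by DESeq2, and -1.22 without WT library 3), and *Ccl19* was at 74.4, 118 and 77.0 CPM in HET and 120, 333 and 312 CPM in WT (-1.57 ± 0.38). Transcription factors of mTEC and partners of *Aire* had fewer members lower, with 4 of 20 lower in HET in each list and 0 called by edgeR or DESeq2 (2 higher in each at an unadjusted p under 0.05). Their medians over the tested genes were 0.03 and 0.33, against 0.02 over all genes. Of the 20 partners of *Aire*, 5 had every HET library above every WT library, and of the transcription factors 0 did. Among all 18793 genes with a UMI in MmTEC, 1094 did so.

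Markers of other cells were compared by genotype too. In the lists that follow edgeR called none, and DESeq2 called 1, the cTEC marker *Ctsl*, which was higher in HET. The summed cTEC markers in MmTEC were at 4942, 5637 and 3819 CPM in HET and 2210, 2923 and 3546 CPM in WT, which did not overlap, and 1 of the 12 had a lower mean in HET. Without *Ctsl*, a choice made after seeing the values, they were at 2039, 1886 and 1554 CPM in HET and 1115, 1613 and 1939 CPM in WT, which overlapped. B cell and myeloid markers were lower in HET for 10 of 12, with sums of 194, 274 and 606 CPM in HET and 500, 417 and 912 CPM in WT, which overlapped, and a median of -1.06 over the 4 tested. Fibroblast markers summed to 610, 2035 and 1729 CPM in HET and 1147, 1203 and 1001 CPM in WT, which overlapped, with 2 of 10 lower in HET and a median of 0.78 over the 8 tested. Endothelial and mural markers summed to 402, 912 and 707 CPM in HET and 511, 438 and 499 CPM in WT, which overlapped too, with 1 of 10 lower. The part of these markers in the results by genotype was not tested.

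**Figure D5:**
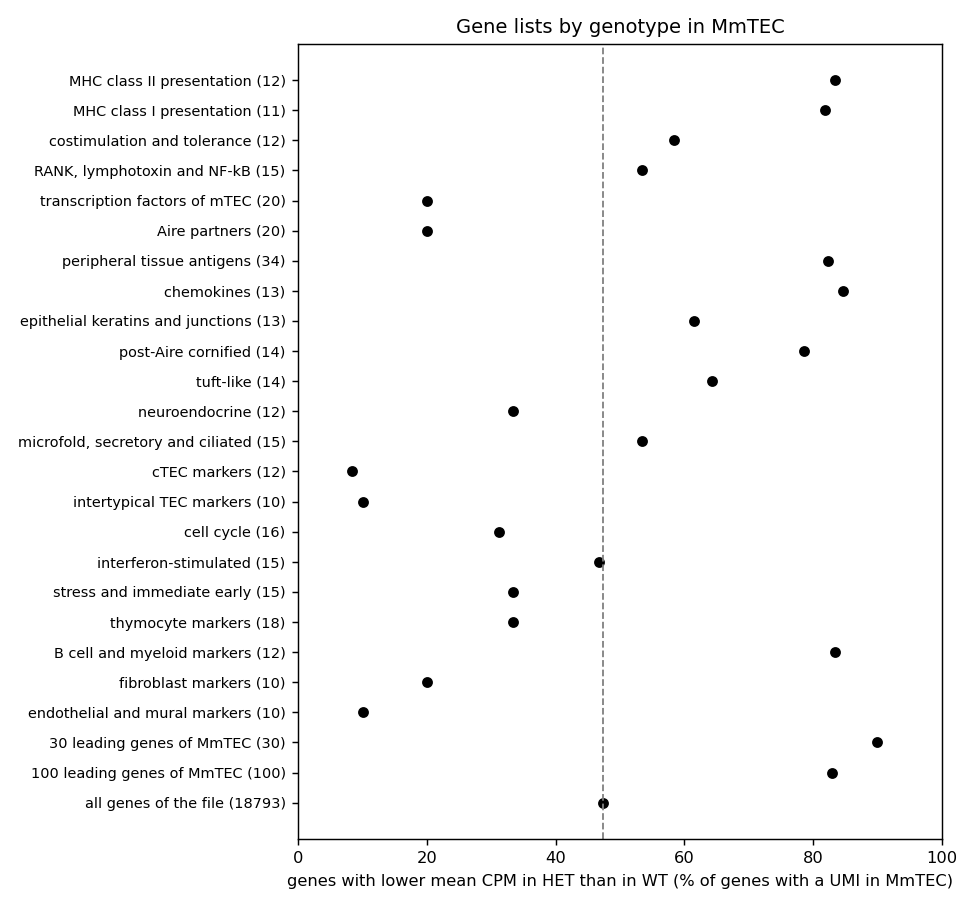
Share of the genes of each list with a lower mean CPM in HET than in WT, out of those with a UMI in MmTEC (number in brackets). The dashed line is the 47.3% of all genes; class II, class I, tissue antigen, chemokine and B cell and myeloid genes lie to its right, and cTEC and intertypical TEC markers to its left.

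A last model asked whether the genotype difference in MmTEC was unlike that in the other TEC, with both cell pools of each library fitted together. The other TEC pooled all TEC labels but MmTEC, and their mix differed between libraries. PcTEC, for example, were 565 of 812 TEC in HET library 1 and 971 of 2362 in WT library 3. The part of this mix in the values of the other TEC, here and above, was not tested. Of 12398 genes tested, 28 passed (0.226%), 8 of them relatively higher and 20 relatively lower in HET MmTEC. The 5 higher genes with the smallest p were *Ctsl*, *Gas6*, *Cxcl12*, *Slc46a2* and *Zfp36l1*. *Ctsl*, the lysosomal protease by which cTEC make class II peptides, was at 2903, 3751 and 2265 CPM in HET MmTEC and 1095, 1310 and 1607 CPM in WT MmTEC. In the other TEC it was at 17979, 16989 and 12315 CPM in HET and 14293, 17326 and 22844 CPM in WT. The groups did not overlap in MmTEC and did in the other TEC, and the difference between the differences was 1.24 ± 0.14 on the log2 scale (adjusted p = 2.38e-05, edgeR).

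*Cxcl12*, the ligand of CXCR4, was at 267.9, 173.2 and 161.02 CPM in HET MmTEC and 72.97, 73.01 and 104.6 CPM in WT MmTEC (interaction 1.38 ± 0.23). *Gas6*, a ligand of TAM receptors, was at 245.6, 245.4 and 164.5 CPM in HET MmTEC and 88.6, 98.8 and 89.7 CPM in WT MmTEC (1.32 ± 0.21). All of these genes were at a higher level in the other TEC than in MmTEC in every library, and *Ctsl* and *Cxcl12* are on the cTEC marker list whose sum is given above. *Psmb11* and *Prss16* had a UMI in 28.55% and 90.70% of PcTEC at 2000 UMIs. In MmTEC these shares were 4.69% and 24.65%, against 4.13% and 19.98% in CapFb1b fibroblasts. How much of the cTEC marker RNA in MmTEC came from other cells was not tested.

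The 5 lower genes with the smallest p were *Gm36899*, *Krt24*, *Lyz1*, *Mt1* and *AA467197*. *Mt1*, a metallothionein, was at 491, 1415 and 1152 CPM in HET MmTEC and 1048, 1548 and 1624 CPM in WT MmTEC. In the other TEC it was at 194, 690 and 346 CPM in HET and 223, 272 and 320 CPM in WT, for an interaction of -1.10 ± 0.19. Both pairs of groups overlapped. *AA467197* had an interaction of -2.45 ± 0.42, with 22.9, 33.3 and 23.1 CPM in HET and 19.6, 43.1 and 36.6 CPM in WT in the other TEC. *Lyz1*, *Krt24* and *Gm36899* were under 7 CPM in the other TEC of every library, so their ratios there rest on few UMIs. Without WT library 3 the count of genes fell to 8, without HET library 3 to 15 and without HET library 2 to 17, and without WT library 1 or WT library 2 it was 61 or 52. On cells thinned to 2000 UMIs 35 genes passed, 12 of them among the 28, and *Slc46a2*, *Zfp36l1*, *Krt24* and *Lyz1* no longer did.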

How the data were processed

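Newborn cells of 3 Tbx1+/-Crkl+/- and 3 WT libraries were read from the whole UMI counts per gene and cell that the authors deposited, without normalization, after Cell Ranger 3.1.0, a filter on genes and mitochondrial UMIs, and removal of doublets with DoubletFinder. Bulk read counts per gene were deposited by the authors without normalization. The submitters' processing notes name STAR 2.5.3a, HTSeq, mm10 and GRCh38 without saying which step used them. Cell labels were used as deposited. Members, gene lists and tests were chosen with earlier results of these data known.

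UMIs were summed over the MmTEC, and over the other TEC, of each library. HET and WT were compared with edgeR 4.0.16 (filterByExpr, TMM, robust quasi-likelihood test, Benjamini-Hochberg adjustment, threshold 0.05) in R 4.3.3. The genotype interaction added terms for library and cell pool. DESeq2 1.42.0 was an alternative. Levels are CPM, given over libraries with at least 5 cells. Bulk identifiers were matched to symbols for 37607 of 39179, and 10.8 to 15.6% of the bulk reads lay in entries of no gene, which were left out. Bulk libraries held 7518907 to 14454727 counts. Cells were thinned to 2000 UMIs where depth could set a share.

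Named genes were the 3 markers, the 30 leading and 10 lowest genes, the genes called by genotype whose libraries did not overlap (at most 10 in each direction), 5 interaction genes in each direction, and list members with high levels or small p. *Lyz1* and *Lyz2*, and *H2-DMb1* and *H2-DMb2*, resemble each other closely in sequence, and counting could have split reads among such copies. The labels do not say whether each library was 1 mouse, so the spread may be in part technical. On simulated counts with a log2 change of 2, the genotype test recovered 83 of 90 genes with 9 false calls among 5744 genes, and with a change of 1 it recovered 19 of 88. The interaction test recovered 43 of 97 and 8 of 96 at these changes, with 4 false calls among 11950 genes, and the bulk test 28 of 90 and 6 of 95, with 1 among 14363. In the interaction simulation each gene had 1 mean level for both cell pools. Its rates therefore do not carry over to genes whose level differs between the pools. Lengths of transcripts were not used, so levels were compared within a gene. Values of some list members are not reported here.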

Additional observations from a re-analysis of the deposited data

Results flagged for a closer look

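In the bulk libraries, 1 of 6 stood apart from the rest of its group by Dixon's ratio for several of the marker and leading genes. For normally distributed values, chance alone would flag about 1 in 20 groups. That rate need not hold for the cTEC groups below, whose medians were 0 to 2.31 CPM. In cTEC at P0 the highest values were 2.91 CPM for *Aire* (the other 5 at 0), 6.20 CPM for *Csn2* (next 0.988), 11.9 CPM for *Hdc* (next 4.16), 4.94 CPM for *Calcb* (next 1.48) and 0.247 CPM for *Calca* (the others at 0). In mTEC at P0, *Cd80* reached 63.9 CPM in 1 library (next 52.1) and *Csn2* fell to 518 CPM in 1 library (next 808).

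The genotype difference in MmTEC was unlike that in the other TEC for 10 named genes, by the interaction term in edgeR. In log2 units it was 1.24 for *Ctsl*, 1.32 for *Gas6*, 1.38 for *Cxcl12*, 1.11 for *Slc46a2* and 1.31 for *Zfp36l1*. It was -2.70 for *Gm36899*, -5.26 for *Krt24*, -3.18 for *Lyz1*, -1.10 for *Mt1* and -2.45 for *AA467197*. The value of *Krt24* ranged from -6.30 to -4.13 without 1 library. On cells thinned to 2000 UMIs, *Zfp36l1* (0.75, adjusted p = 0.513), *Lyz1* (-2.57, 0.328), *Slc46a2* (0.84, 0.236) and *Krt24* (-4.72, 0.0888) no longer passed in edgeR, and *Lyz1* did not pass in DESeq2 (adjusted p = 0.0590). Of the 28 genes with such a difference, 12 passed after thinning and 6 passed without WT library 3.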

How the results depend on the processing

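Counts of called genes are given as shares of the genes tested, since the settings test different numbers of genes, and were compared between settings as counts. By genotype, 0.131% of 6092 genes were called (8 genes). The share was 0.149% with DESeq2 (28 genes) and 0.878% of 18793 genes without the low-count filter, of which 21 were higher in HET. Leaving out 1 library gave 0% (without HET replicate 3) to 1.19% (89 genes, without WT replicate 1). With the replicate block it was 0.821% (50 genes, including all 8), but same-numbered libraries did not deviate together (correlations of 0.07, -0.01 and -0.20), so the numbers do not pair the samples. The interaction called 0.226% (28 genes), which became 0.073% with DESeq2 (15 genes), 0.603% of 20555 genes without the filter (48 higher and 76 lower) and 0.0636% to 0.446% without 1 library. In bulk mTEChi against mTEClo 16.4% (2531 genes) became 19.3% with DESeq2 (5094 genes) and 17.3% with the label prefix as a term (2675 genes). Each bulk group held 3 libraries of each prefix. The sample numbers of the compared bulk sorts ran in parallel at a constant offset, but their labels share no number. No sample-level pairing was fitted, so the bulk p-values rest on unpaired fits. The share of MmTEC had a log2 difference of -0.17, which reversed to 0.083 against non-thymocyte cells, was -0.19 with the replicate block and ranged from -0.39 to -0.05 without 1 library. Genes per cell differed by 53.5 at 2000 UMIs and by 22.8 to 75.8 without 1 library. Of the 30 leading genes, 16 were shared at a pseudocount of 1 and 25 to 28 without 1 library. The near-zero log2 value of *Aire* changed sign with the replicate block (0.013) and after thinning (0.16), and ranged from -0.21 to 0.21 without 1 library. The cause of these changes was not tested. Other named values kept their sign. Of 284 alternative values of named genes by genotype, 28 no longer passed the threshold and 24 newly passed it. Of the 110 interaction values, 16 no longer passed. Genes under 3 UMIs per library were beyond the depth.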
